A study of Mus musculus with 30 samples.

Results

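The genes examined were 10 genes of the elastic fibre, measured in the mouse abdominal aorta: Eln, Lox, Loxl1, Fbln5, Fbln2, Efemp2, Fbn1, Mfap4, Mfap5 and Emilin1. They were chosen by name, with earlier results of these data known. Each was summed over its annotated transcripts, and all 10 of the 14379 genes summed in this way also passed the filter on low values that left 13223 genes for testing. The 30 libraries came from wild-type C57BL/6 mice after 28 days of treatment and fall into 6 groups of 5. Angiotensin II was given at 500 ng/kg/min together with 1 of 4 compounds. The AngII+ETH group had ethoxysanguinarine, the AngII+BAI group baicalin and the AngII+GAS group gastrodin, all of plant origin and at 5 mg/kg per day, and the AngII+VAL group had valsartan at 10.4 mg/kg per day. The AngII group had the same angiotensin II with saline as its second treatment, and the Control group had saline for both. Angiotensin II is the hormone that constricts arteries, and valsartan blocks its type 1 receptor. The labels call each library a separate sample but do not say how many mice it held, and give neither age nor sex, so p-values measure the spread between these samples.

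Elastic fibres give a large artery its recoil. Tropoelastin, the product of Eln, is laid onto a scaffold of fibrillin microfibrils, and fibulins bring it together with the lysyl oxidases that cross-link it into insoluble elastin. In the aortic wall, smooth muscle cells of the media and fibroblasts of the adventitia make these proteins, most of the elastin is laid down early in life, and mutations of several of these genes cause aneurysm, arterial narrowing or lax tissue.

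The values are FPKM per transcript, fragment counts scaled to transcript length and to library size, so that levels can be set against each other between genes. The values of a library corresponded to 69.8 to 80.8 M reads, and the lowest read number behind a member in any library was 566, for Efemp2. Transcripts assembled from the reads carried 9.19% to 13.5% of the FPKM of a library and name no gene, so none of them enters a member's sum. Checked against the label of aorta, all 8 smooth muscle markers were listed, with Myocd under 1 FPKM on average, and all 6 white and 7 brown adipocyte markers were listed too. The smooth muscle score, the mean log2(FPKM + 1) of its markers, was 6.06 for AngII+BAI 3, 6.27 for AngII+BAI 5 and at least 6.85 elsewhere. Neuron markers were high in AngII 1, 4 and 5 (scores 5.60, 4.05 and 6.09), AngII+ETH 1 (5.09) and AngII+VAL 4 (4.51), and 8 of 10 skeletal muscle markers were listed and high in Control 1 and 2 (5.51 and 6.75), in AngII+ETH 1, in AngII+BAI 3 and in all AngII+VAL libraries (5.29 to 6.70). In these bulk samples fewer cells of a type and less RNA per cell cannot be told apart.

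Elastin was the most abundant of the 10 genes by a wide margin in summed FPKM. Its median over 30 libraries was 281 FPKM, and it stood above Mfap4, the next gene with a median of 98.0 FPKM, in 29 of 30 libraries. A retained-intron transcript carried 45.7% of the Eln sum over the 30 libraries. The coding Eln transcript alone averaged 169 FPKM, against 108 FPKM for the Mfap4 sum. Loxl1 (80.5 FPKM) was above Lox (65.5 FPKM) in 25 of 30 libraries. Lox, Mfap5 (62.5 FPKM) and Fbln5 (60.9 FPKM) did not separate, since Lox exceeded Mfap5 in 15 of 30 libraries and Mfap5 exceeded Fbln5 in 18. Fbln2 followed at 40.7 FPKM, below Fbln5 in 26 of 30 libraries. Fbn1 (27.2 FPKM), Emilin1 (20.1 FPKM) and Efemp2 (18.5 FPKM) closed the order, and their neighbours changed places in 10 to 12 of 30 libraries. The mean level of Eln lay above that of 99.3% of tested genes in AngII and of 98.1% in Control, while that of Efemp2 lay above 84.0% in AngII and 81.6% in Control.

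The genes also differed in how much libraries of 1 group varied. The within-group SD on the log2(FPKM + 1) scale was 1.22 for Fbn1, 0.92 for Lox, 0.83 for Mfap5 and 0.78 for Eln, against a median of 0.39 over all tested genes. Efemp2 (0.74), Fbln2 (0.71), Mfap4 (0.65) and Fbln5 (0.57) were intermediate. Loxl1 (0.42) and Emilin1 (0.37) were close to the median gene. Among the 500 tested genes nearest to each in mean level, 96.8% had a smaller SD than Fbn1, 97.2% than Lox and 94.6% than Eln, but 61.2% than Loxl1 and 60.2% than Emilin1. Fbn1 ranged 80.3-fold over the 30 libraries and Emilin1 3.02-fold.

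**Figure D1:**
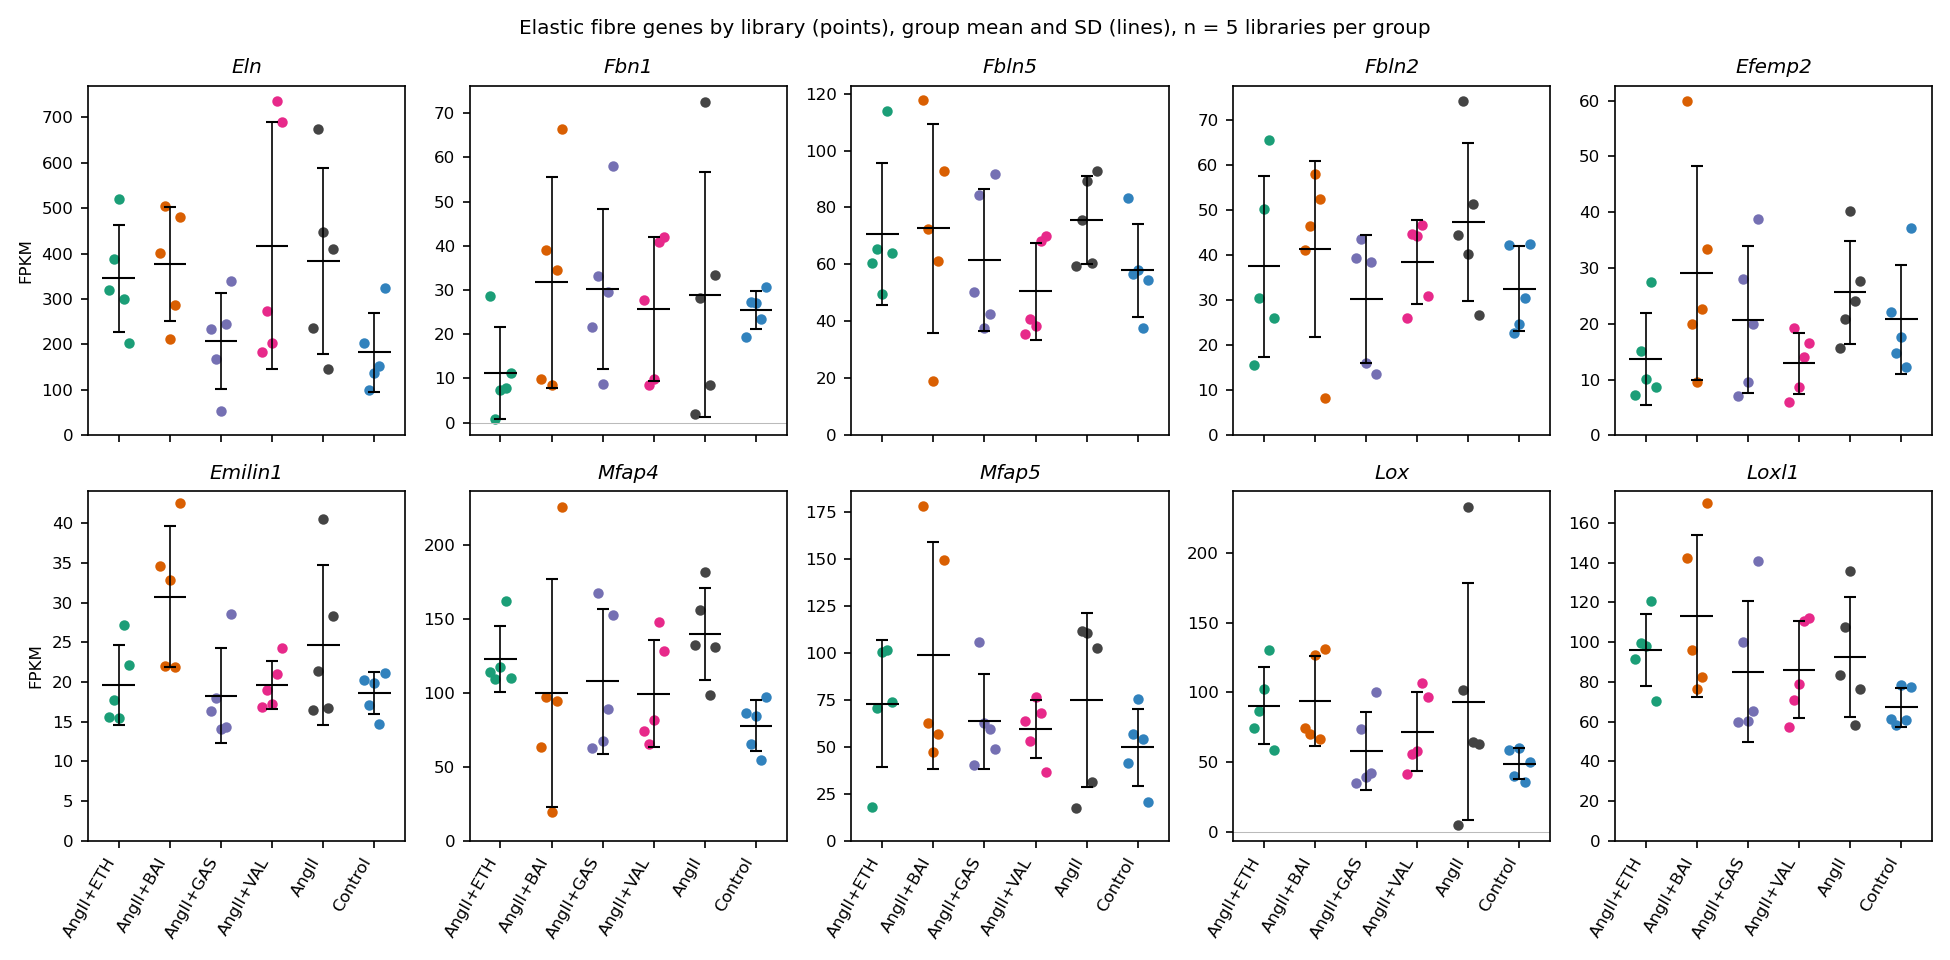
Level of each of the 10 elastic fibre genes, with FPKM on the vertical axis and the 6 groups along the horizontal axis, where points are libraries and lines the group mean and SD (n = 5). The Mfap4 points of AngII (98.7 to 182 FPKM) lie above all Control points (54.7 to 97.4 FPKM), and the other 9 genes overlap between these groups.

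AngII was set against Control to ask what the hormone did to the genes that build the elastic fibre. None of the 10 passed the threshold in limma (adjusted p under 0.05), and 0% of the 13223 tested genes did so in either direction. Their log2 fold changes, on the log2(FPKM + 1) scale, were above 0 for 9 of 10 genes, against 66.6% of tested genes, and their median was 0.38, against 0.11 over all tested genes. An unadjusted p under 0.05 was reached by 2 of 10 genes on the higher side, Eln and Mfap4, against 9.51% of tested genes, and by 0 of 10 on the lower side, against 1.69%. Quantile normalization moved the median of all genes to -0.02 and turned the direction of no member here.

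Eln (ENSMUSG00000029675, GRCm38 chromosome 5, 134702593 to 134747323, minus strand) encodes tropoelastin, the monomer of the elastic core. It was at 236, 675, 448, 146 and 411 FPKM in AngII 1 to 5, and at 203, 99.8, 137, 153 and 323 FPKM in Control 1 to 5. AngII 2, 3 and 5 were above every Control library, while AngII 1 and 4 lay within the Control range. The mean was 383 ± 205 FPKM in AngII and 183 ± 86.7 in Control (SD, n = 5 each), a log2 fold change of 0.99 (SE 0.47, 95% interval 0.02 to 1.96) with adjusted p = 0.44 (limma). Of all tested genes, 10.7% had a smaller p value. With the neuron and skeletal muscle scores as terms in the fit the log2 fold change was 0.72 (adjusted p = 0.995).

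Lox and Loxl1 encode the copper-dependent amine oxidases that cross-link elastin, Lox also acting on collagen. Lox (ENSMUSG00000024529) was at 5.14, 101, 233, 64.7 and 62.9 FPKM in AngII 1 to 5, against 58.5, 40.1, 60.3, 35.7 and 50.2 FPKM in Control. AngII 2 to 5 were above the whole Control range and AngII 1 was below it. Its log2 fold change was 0.23 (SE 0.56, adjusted p = 0.91), and it was 1.03 without AngII 1 (adjusted p = 0.39), -0.28 without AngII 3 and -0.16 with array weights. Loxl1 (ENSMUSG00000032334, chromosome 9, 58287738 to 58313186, minus strand) was at 83.6, 108, 136, 58.2 and 76.6 FPKM in AngII, against 61.1, 58.2, 78.2, 61.0 and 77.3 FPKM in Control. AngII 1, where Lox was lowest, was thus above the Control range for Loxl1, as were AngII 2 and 3. Loxl1 had a log2 fold change of 0.41 (SE 0.26, adjusted p = 0.59).

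Fibulins are calcium-binding glycoproteins of the fibre surface. Fbln5 encodes fibulin-5, which tethers tropoelastin to integrins and to the lysyl oxidases, and Efemp2 encodes fibulin-4, which brings lysyl oxidase to tropoelastin. The 250 bases before their transcription starts, from RefSeq on GRCm38.p6, are shown. They were chosen because both proteins partner lysyl oxidases and the genes varied together (Pearson r = 0.76). Without the 2 libraries farthest from the Fbln5 median r was 0.69. Fbln5 and Efemp2 also followed the smooth muscle score (r = 0.67 and 0.57) and the fibroblast score (r = 0.74 and 0.61). The part of the promoters or of these markers in the shared variation was not tested. Capitals mark GC boxes, the letters GGGCGG or CCGCCC on the strand shown, and each promoter holds 2 of them; Fbln5 lies at chr12:101819120-101819369 on the minus strand and Efemp2 at chr19:5473696-5473945 on the plus strand, each read 5′ to 3′.
Fbln5: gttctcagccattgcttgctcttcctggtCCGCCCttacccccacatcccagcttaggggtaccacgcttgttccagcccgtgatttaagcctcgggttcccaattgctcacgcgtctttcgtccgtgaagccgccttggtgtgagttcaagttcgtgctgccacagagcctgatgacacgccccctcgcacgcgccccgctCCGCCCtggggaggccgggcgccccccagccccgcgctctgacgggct
Efemp2: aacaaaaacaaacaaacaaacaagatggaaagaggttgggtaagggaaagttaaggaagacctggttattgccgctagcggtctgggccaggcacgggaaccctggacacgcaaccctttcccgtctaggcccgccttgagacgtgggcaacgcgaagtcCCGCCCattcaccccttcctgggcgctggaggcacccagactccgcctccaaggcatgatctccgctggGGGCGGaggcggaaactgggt
RefSeq promoters matched 5 of the 10 genes, Fbn1, Fbln5, Fbln2, Efemp2 and Emilin1. Where a gene had several starts, the one nearest to the annotated gene start was taken. The start used lay 1555 bases from the annotated one for Fbn1, 384 for Emilin1, 309 for Fbln2, 64 for Fbln5 and 8 for Efemp2. A GC box on either strand was in 4 of these 5 windows, all but that of Emilin1, and in 32.7% of 32851 RefSeq promoters of the same length. The other words searched on both strands were in 0 of 5: TATAAA (12.4% of all promoters), the AP-1 site TGACTCA or TGAGTCA (4.46%), CATTCC (12.6%), the SMAD word GTCTAGAC (0.167%) and the CArG box (1.47%). The G and C content was 65.2% for Fbln5 and 59.2% for Efemp2, against a median of 52.4% over all promoters.

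Fbln5 (ENSMUSG00000021186, chromosome 12, 101746565 to 101819055, minus strand) was at 59.5, 75.6, 89.2, 60.6 and 92.7 FPKM in AngII 1 to 5, against 83.2, 56.7, 58.0, 37.7 and 54.5 FPKM in Control. All 5 AngII libraries were above the Control median, and AngII 3 and 5 were above the highest Control library. Its log2 fold change was 0.39 (SE 0.35, adjusted p = 0.71). Efemp2 (ENSMUSG00000024909, chromosome 19, 5473954 to 5482517, plus strand) averaged 25.7 ± 9.27 FPKM in AngII and 20.8 ± 9.81 in Control (SD, n = 5 each; log2 fold change 0.33, SE 0.45, adjusted p = 0.82). Fbln2 (ENSMUSG00000064080, chromosome 6, 91212455 to 91272540, plus strand), fibulin-2, which binds fibrillin and elastin, averaged 47.3 ± 17.5 FPKM in AngII and 32.5 ± 9.41 in Control (SD, n = 5 each). Its log2 fold change was 0.50 (SE 0.43, adjusted p = 0.70), and 3 of 5 AngII libraries were above the Control range.

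Among the microfibril genes, Mfap4 separated the groups in summed FPKM and Fbn1 did not. Mfap4 (ENSMUSG00000042436, chromosome 11, 61485431 to 61488900, plus strand) encodes a microfibril-associated protein that binds elastin and fibrillin. It was at 132, 156, 182, 98.7 and 131 FPKM in AngII 1 to 5, against 86.4, 65.5, 84.4, 54.7 and 97.4 FPKM in Control. Every AngII library was above every Control library in this sum, which held for 1 of the 10 genes and for 3.01% of tested genes. Wholly below Control lay 0 of 10, against 0.537% of tested genes. The 1722-base coding transcript of Mfap4 alone overlapped, with AngII 4 and 5 at 80.8 and 77.8 FPKM and Control 3 at 81.2 FPKM. For Mfap4 the log2 fold change was 0.84 (SE 0.40, 95% interval 0.03 to 1.66) with adjusted p = 0.43 (limma). It lay between 0.72 and 0.96 when single libraries were left out, and was 0.45 with the neuron and skeletal muscle scores as terms (adjusted p = 0.995).

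Fbn1 (ENSMUSG00000027204, chromosome 2, 125300594 to 125507993, minus strand) encodes fibrillin-1, the backbone of the microfibril and the gene mutated in Marfan syndrome. It was at 2.004, 28.3, 72.6, 8.46 and 33.5 FPKM in AngII 1 to 5, and at 19.4, 27.2, 27.1, 23.3 and 30.7 FPKM in Control. The Control libraries lay close together, while AngII had 2 libraries above and 2 below their range. Its log2 fold change was -0.51 (SE 0.74, adjusted p = 0.83), the only one of the 10 below 0, and it was 0.14 without AngII 1. Mfap5 (ENSMUSG00000030116, chromosome 6, 122505845 to 122529290, plus strand), a small glycoprotein of the microfibril that binds fibrillin, was at 17.5, 112, 111, 31.4 and 102 FPKM in AngII, against 41.4, 56.9, 75.4, 53.9 and 20.6 FPKM in Control. AngII 2, 3 and 5 were above the Control range and AngII 1 below it (log2 fold change 0.36, SE 0.50, adjusted p = 0.82). Emilin1 (ENSMUSG00000029163, chromosome 5, 30913402 to 30921277, plus strand), a glycoprotein at the face between elastin and microfibrils, averaged 24.7 ± 10.1 FPKM in AngII and 18.6 ± 2.64 in Control (SD, n = 5 each; log2 fold change 0.32, SE 0.23, adjusted p = 0.63).

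AngII 2 and 3 carried all 10 genes above their Control mean and AngII 5 carried 9, but AngII 1 and 4 carried 5 each. The FPKM of the 10 genes summed to 560 to 1391 in AngII, against 459 to 755 in Control. All 8 fibroblast markers were listed and their summed level was 2192 to 4682 FPKM in AngII, against 1676 to 2385 FPKM in Control. Their score was 7.15 to 8.23 in AngII, against 6.63 to 7.12 in Control. Every AngII library was thus above every Control library, as for the Mfap4 sum. The 8 smooth muscle markers summed to 5807 to 7350 FPKM in AngII, against 4907 to 8481 FPKM in Control. The 10 neuron markers summed to 12.9 to 974 FPKM in AngII, against 17.7 to 83.0 FPKM in Control. The part of the fibroblast markers in these differences was not tested.

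**Figure D2:**
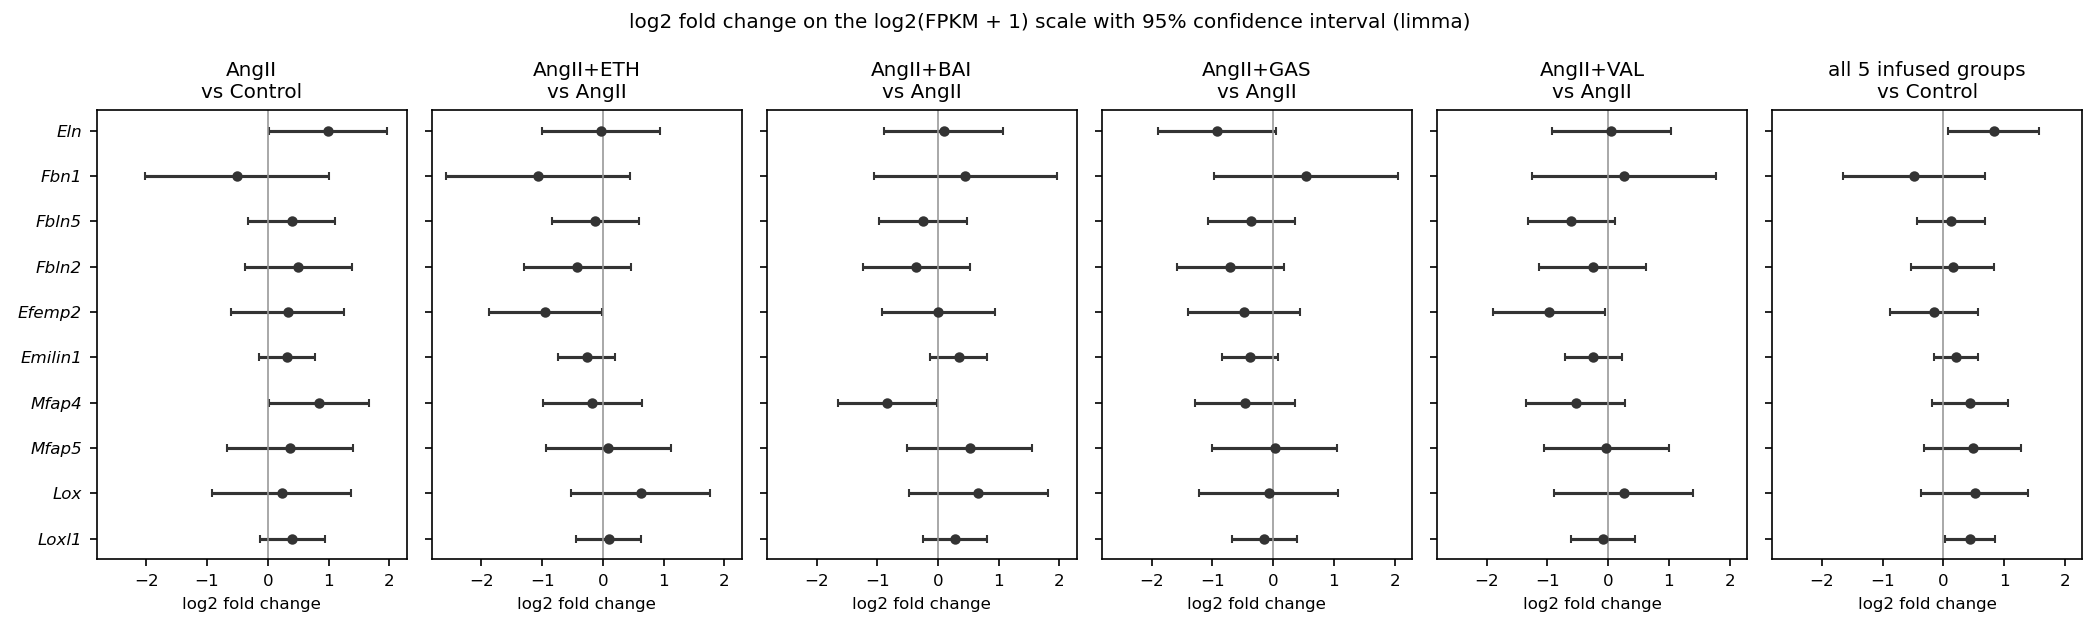
Log2 fold change (points) on the log2(FPKM + 1) scale with its 95% confidence interval (lines) for the 10 genes in each of the 6 comparisons, from the limma fit over all tested genes. Of the AngII against Control intervals, those of Eln (0.02 to 1.96) and Mfap4 (0.03 to 1.66) lie above 0, and no gene passed the adjusted threshold in any panel.

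The 5 angiotensin II groups together, with or without a compound, were set against Control to use the larger number of treated libraries. The contrast takes the mean of the 5 group means and contains the AngII libraries of the comparison above, so the 2 share libraries. None of the 10 genes passed the threshold, against 0.0378% of tested genes higher and 0.00756% lower, and 8 of 10 log2 fold changes were above 0, against 55.8% of tested genes. The members' median was 0.32 and that of all tested genes 0.03. Eln and Loxl1 had an unadjusted p under 0.05 on the higher side, as had 4.41% of tested genes.

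Eln had a minimum of 53.1, a median of 299 and a maximum of 735 FPKM over the 25 libraries given angiotensin II, against 99.8, 153 and 323 FPKM in Control. Of these 25 libraries, 23 were above the Control median, and all 5 group means were above the Control mean. Its log2 fold change was 0.83 (SE 0.37, 95% interval 0.07 to 1.58; adjusted p = 0.74, limma). Loxl1 had a minimum of 57.4, a median of 91.5 and a maximum of 170.0 FPKM over the 25 libraries, against 58.2, 61.1 and 78.2 FPKM in Control. It was above the Control median in 21 and above the Control maximum in 16 of 25 libraries (log2 fold change 0.43, SE 0.20, 95% interval 0.02 to 0.85; adjusted p = 0.77). Lox was above the Control maximum in 17 of 25 libraries, but its interval was wider (log2 fold change 0.52, SE 0.43, adjusted p = 0.86).

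Fbn1 and Efemp2 were the 2 genes with a log2 fold change below 0 in this contrast, -0.48 (SE 0.57, adjusted p = 0.90) and -0.15 (SE 0.35, adjusted p = 0.95). Fbn1 spread to both sides, with 9 of 25 libraries above the Control maximum and 11 below the Control minimum. Efemp2 had 3 above and 8 below, and its log2 fold change was 0.07 without Control 5. The remaining values were 0.48 for Mfap5, 0.44 for Mfap4, 0.21 for Emilin1, 0.15 for Fbln2 and 0.13 for Fbln5, with adjusted p between 0.84 and 0.95, and that of Fbln5 was -0.02 without Control 4. Mfap4 was above the Control maximum in 15 of 25 libraries.

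Each compound group was set against AngII to ask whether the compound moved elastic fibre genes away from their level under angiotensin II alone. The 4 comparisons share the 5 AngII libraries, so an AngII library that stands apart enters all of them. Without AngII 1, whose Lox and Fbn1 were the lowest of the group, the log2 fold changes of Lox turned below 0 in AngII+ETH (-0.19), AngII+BAI (-0.14) and AngII+VAL (-0.55), and those of Fbn1 in AngII+BAI (-0.20), AngII+GAS (-0.11) and AngII+VAL (-0.39).

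In AngII+ETH against AngII 0 of 10 genes passed the threshold, and 0% of tested genes in either direction. No member's libraries lay wholly above or below AngII, against 0.0681% and 0.431% of tested genes. Values above 0 on the log2 fold scale were found for 3 of 10 genes, against 31% of tested genes, with a members' median of -0.15 and a median of -0.09 over all genes. Efemp2 was at 7.21, 15.1, 10.05, 27.5 and 8.68 FPKM in AngII+ETH 1 to 5, against 15.6, 20.8, 40.2, 24.05 and 27.6 FPKM in AngII. All AngII+ETH libraries but the fourth were below the whole AngII range. For Efemp2 the log2 fold change was -0.95 (SE 0.45, 95% interval -1.87 to -0.02; adjusted p = 0.99), and 2.97% of tested genes had an unadjusted p under 0.05 on the lower side. Fbn1 was at 28.8, 0.903, 7.32, 7.83 and 11.3 FPKM in AngII+ETH, so that 1 library was below the AngII range of 2.004 to 72.6 FPKM (log2 fold change -1.07, SE 0.74, adjusted p = 0.99). Lox had the highest value, 0.62 (SE 0.56, adjusted p = 0.99), and the intervals of Eln (-1.003 to 0.94) and Mfap4 (-0.99 to 0.64) leave room for a difference in either direction. The other values were -0.42 for Fbln2, -0.27 for Emilin1, -0.13 for Fbln5 and 0.09 for both Mfap5 and Loxl1, with adjusted p of at least 0.99. The smooth muscle markers summed to 5630 to 9735 FPKM in AngII+ETH, against 5807 to 7350 FPKM in AngII.

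In AngII+BAI against AngII 0 of 10 genes passed, against 0.0151% of tested genes higher and 0.318% lower. An unadjusted p under 0.05 was reached by 0 of 10 genes on the higher side, against 5.35% of tested genes. No member's libraries lay wholly above or below AngII, against 0.303% and 1.40% of tested genes. Values above 0 on the log2 fold scale were found for 7 of 10 genes, against 48.7% of tested genes, and the members' median was 0.19, against -0.01 over all genes. Mfap4 was at 63.2, 97.4, 19.4, 94.7 and 226 FPKM in AngII+BAI 1 to 5, against 132, 156, 182, 98.7 and 131 FPKM in AngII. AngII+BAI 1 to 4 were below every AngII library and AngII+BAI 5 was above every one. For Mfap4 the log2 fold change was -0.83 (SE 0.40, 95% interval -1.65 to -0.02; adjusted p = 0.33), with 9.29% of tested genes under an unadjusted p of 0.05 on the lower side. Leaving out AngII+BAI 3 gave -0.35, leaving out AngII+BAI 5 gave -1.22, and leaving out both gave -0.71.

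AngII+BAI 3 and 5 stood at opposite ends for several genes. AngII+BAI 3 had the lowest Fbln5 (19.2 FPKM) and Mfap4 (19.4 FPKM) of all 30 libraries, while its Lox was 127 FPKM and its Emilin1 32.8 FPKM. AngII+BAI 5 had the highest Mfap4, Loxl1 (170.0 FPKM) and Emilin1 (42.5 FPKM) of all libraries and the lowest Fbln2 (8.28 FPKM). Emilin1 was at 34.6, 22.0, 32.8, 21.8 and 42.5 FPKM in AngII+BAI and above the AngII median of 21.4 FPKM in all 5 (log2 fold change 0.34, SE 0.23, adjusted p = 0.48). Lox (0.66, SE 0.56) and Mfap5 (0.52, SE 0.50) had adjusted p of 0.58 and 0.64, and Eln was at 0.09 (95% interval -0.88 to 1.07), or -0.14 after quantile normalization. The other values were 0.45 for Fbn1, 0.28 for Loxl1, 0.0058 for Efemp2, -0.25 for Fbln5 and -0.36 for Fbln2, with adjusted p between 0.62 and 0.996, and those of Fbln5 and Fbln2 were above 0 without AngII+BAI 3 and 5 (0.12 and 0.050). The smooth muscle markers summed to 1586 to 11231 FPKM in AngII+BAI, against 5807 to 7350 FPKM in AngII, and the 8 macrophage markers to 399 to 2804 FPKM in AngII+BAI, against 319 to 839 FPKM in AngII. The macrophage score was highest in AngII+BAI 3 (7.15) and AngII+BAI 5 (6.51), and the part of these markers in the values was not tested.

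In AngII+GAS against AngII 0 of 10 genes passed, against 0% of tested genes higher and 0.0151% lower. An unadjusted p under 0.05 was reached by 0 of 10 genes in either direction, against 1.23% of tested genes higher and 12.4% lower. Nor did any member's libraries lie wholly above or below AngII, against 0.106% and 2.21% of tested genes. Values above 0 on the log2 fold scale were found for 2 of 10 genes, against 26.3% of tested genes, with a members' median of -0.37 and a median of -0.17 over all genes. Eln was at 235, 168, 53.0, 245 and 340.0 FPKM in AngII+GAS 1 to 5, against 236, 675, 448, 146 and 411 FPKM in AngII. In these summed values all 5 AngII+GAS libraries were below the AngII median, and AngII+GAS 3 had the lowest Eln of all 30 libraries. The coding Eln transcript alone averaged 134 FPKM in AngII+GAS and 187 FPKM in AngII. In AngII+GAS 5 it was at 311 FPKM, above every AngII library but AngII 2 (365 FPKM). For Eln the log2 fold change was -0.92 (SE 0.47, 95% interval -1.89 to 0.05; adjusted p = 0.39), and it was -0.49 without AngII+GAS 3. Fbln2 (-0.71, SE 0.43), Efemp2 (-0.48, SE 0.45), Mfap4 (-0.46, SE 0.40) and Emilin1 (-0.38, SE 0.23) had adjusted p between 0.44 and 0.63. The other values were 0.54 for Fbn1, 0.03 for Mfap5, -0.075 for Lox, -0.14 for Loxl1 and -0.36 for Fbln5, with adjusted p between 0.64 and 0.985. Quantile normalization moved the median of all genes to 0.01 and brought Lox above 0 (0.05). The smooth muscle markers summed to 3255 to 12128 FPKM in AngII+GAS, against 5807 to 7350 FPKM in AngII. The fibroblast markers summed to 1574 to 2582 FPKM in AngII+GAS, against 2192 to 4682 FPKM in AngII, and their part in the values was not tested.

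In AngII+VAL against AngII 0 of 10 genes passed, and 0% of tested genes in either direction. On the higher side 0 of 10 had an unadjusted p under 0.05, against 1.78% of tested genes. No member separated wholly from AngII, against 0.537% of tested genes higher and 2.42% lower. Values above 0 on the log2 fold scale were found for 3 of 10 genes, against 30.6% of tested genes, with a members' median of -0.17 and a median of -0.12 over all genes. Efemp2 was at 6.04, 19.3, 8.65, 14.04 and 16.5 FPKM in AngII+VAL 1 to 5, against 15.6, 20.8, 40.2, 24.05 and 27.6 FPKM in AngII. AngII+VAL 1, 3 and 4 were below the AngII range, and all 5 were below its median. The log2 fold change was -0.98 (SE 0.45, 95% interval -1.90 to -0.05; adjusted p = 0.43), with 9.02% of tested genes under an unadjusted p of 0.05 on the lower side. It was -0.24 with the neuron and skeletal muscle scores as terms (adjusted p = 0.999, limma). The skeletal muscle markers summed to 556 to 2835 FPKM in AngII+VAL, against 10.6 to 73.4 FPKM in AngII. Their score was 5.29 to 6.70 in AngII+VAL and 0.91 to 2.68 in AngII, without overlap. The fit therefore cannot cleanly separate this term from valsartan. Fbln5 was at 35.4, 40.8, 38.3, 68.4 and 69.9 FPKM in AngII+VAL, all below the AngII median of 75.6 FPKM (log2 fold change -0.61, SE 0.35, adjusted p = 0.55). The fibroblast markers summed to 1488 to 2745 FPKM in AngII+VAL, against 2192 to 4682 FPKM in AngII. Of 6 kidney markers 2 were listed, and their score was 4.23 to 4.86 in AngII+VAL, against 0 to 3.28 in AngII. The part of these markers in the Efemp2 and Fbln5 values was not tested.

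Eln split the AngII+VAL libraries. It was at 184, 274, 203, 735 and 689 FPKM in AngII+VAL 1 to 5, so that AngII+VAL 4 and 5 were above every AngII library and the other 3 below the AngII median of 411 FPKM. The same 2 libraries had the highest Lox, Loxl1, Mfap4, Fbn1 and Fbln5 of their group. They also had its highest smooth muscle scores (7.98 and 8.07, against 7.48 to 7.64 in AngII+VAL 1 to 3), whose part in these values was not tested. The log2 fold change of Eln was 0.05 (95% interval -0.92 to 1.03, adjusted p = 0.98). Mfap4 was at -0.53 (SE 0.40, adjusted p = 0.65, limma). It was 0.15 with the neuron and skeletal muscle scores as terms, a fit that cannot cleanly separate the muscle term from valsartan. The other values were 0.26 for Fbn1, 0.25 for Lox, -0.03 for Mfap5, -0.09 for Loxl1, and -0.25 for both Fbln2 and Emilin1, with adjusted p between 0.72 and 0.990. Quantile normalization brought the log2 fold change of Mfap5 above 0 (0.06).

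The division of FPKM between transcripts of a gene, as the authors' quantifier made it, jumped between libraries for several members. Lox has 2 annotated transcripts, both coding, and the shorter, of 4468 bases, was under 0.1 FPKM in 23 of 30 libraries. It was above the 4741-base transcript in 3 libraries, where it took 96.1% (AngII+ETH 2), 99.9% (AngII+BAI 1) and 98.5% (AngII+BAI 5) of the pair. The Lox total in these libraries was 86.5, 74.6 and 131 FPKM, within the range of the other libraries given angiotensin II. The 9847-base coding transcript of Fbn1 was above the 11971-base one in 9 of 30 libraries and had a median share of 13.1%. In AngII it took 53.1%, 92.8%, 11.1%, 88.0% and 7.502% of the pair in libraries 1 to 5, against 88.6%, 5.21%, 6.32%, 2.87% and 4.83% in Control. Low Fbn1 totals occurred on both sides of this division. Of the 9 libraries where the shorter transcript was the higher, 6 had Fbn1 totals of 0.903 to 11.3 FPKM (AngII+ETH 2 and 5, AngII+GAS 3, AngII+VAL 2, AngII 1 and 4), and the other 3 had 19.4 (Control 1), 28.3 (AngII 2) and 66.4 FPKM (AngII+BAI 5). The longer transcript was the higher in 21 libraries. Among these, AngII+ETH 3 and 4 (7.32 and 7.83 FPKM), AngII+BAI 1 and 3 (9.97 and 8.52 FPKM) and AngII+VAL 3 (9.79 FPKM) were low too. The others of the 21 had Fbn1 totals of 21.7 to 72.6 FPKM. The part of the division in the low totals was not tested.

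About as much of the Eln signal lay in a retained-intron transcript of 3076 bases as in the coding transcript of 3853 bases. The retained-intron form took a median of 50.3% of the pair and was the higher of the 2 in 16 of 30 libraries. Its share was 2.69% in AngII+BAI 1, the lowest of all, and at most 60.2%. It spanned 44.3% to 57.0% in AngII, against 43.6% to 56.3% in Control. By group it carried 33.2% of the Eln sum in AngII+BAI and 34.0% in AngII+GAS. That compares with 49.5% in AngII, 52.3% in AngII+ETH and 52.9% in AngII+VAL. The coding transcript averaged 249 FPKM in AngII+BAI, against 187 FPKM in AngII. The Eln fold changes given here are those of the sum, and the part of this division in them was not tested. For Efemp2 the 1557-base coding transcript took a median of 18.8% of its pair with the 1781-base one and between 2.18% and 61.4%, and in AngII it was at 47.9% in library 1 and at 4.88% to 7.39% in the others. A 1770-base Mfap4 transcript annotated without a coding frame took a median of 29.7% of its pair with the 1722-base coding one. For Fbln5 the 5829-base transcript took a median of 25.1% of its pair with the 2371-base one. Loxl1 has 1 annotated transcript, so its values involve no division between annotated transcripts. Whether assembled transcripts took reads of Loxl1 or of other members cannot be seen, because they name no gene.

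**Figure D3:**
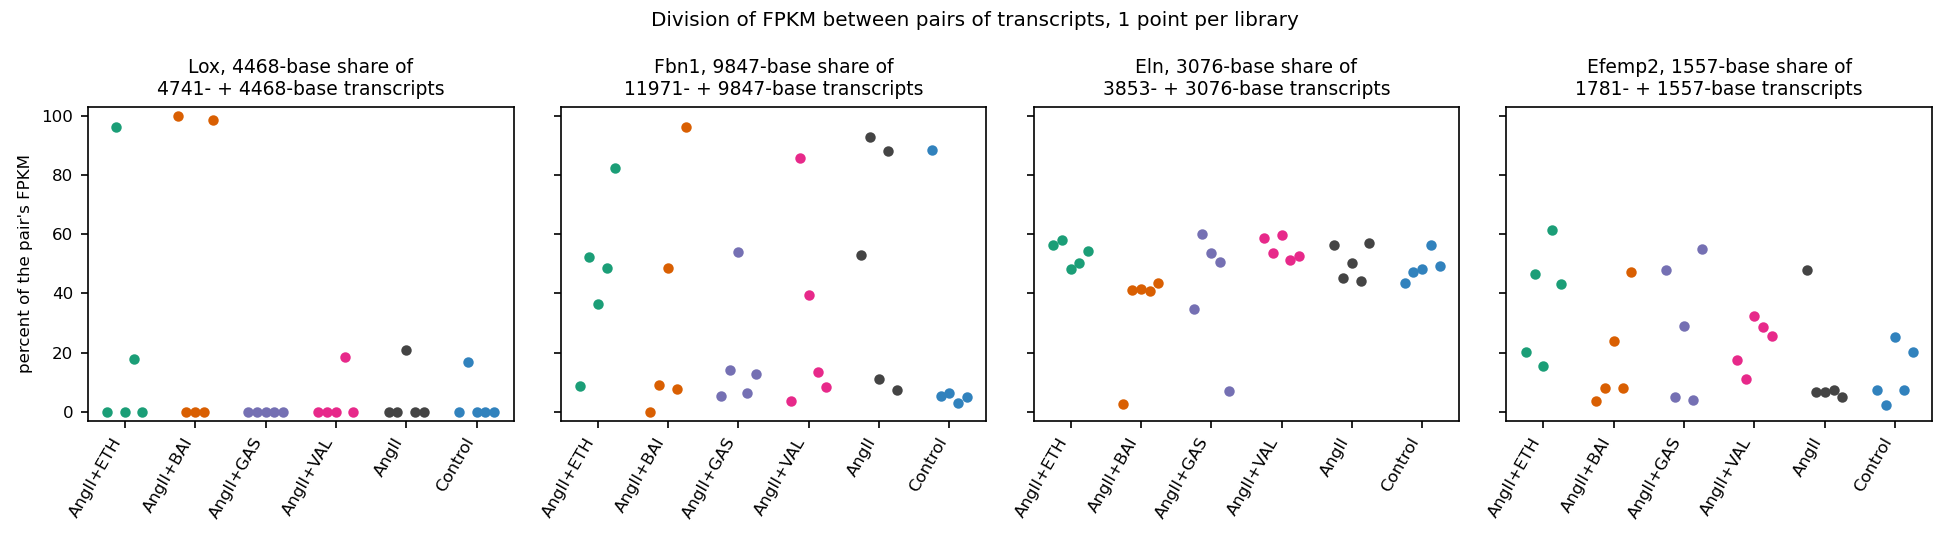
Share of the second transcript in 4 transcript pairs, as percent of the pair's FPKM on the vertical axis, with 1 point per library and the 6 groups along the horizontal axis. The 4468-base Lox transcript lies at or near 0% in most libraries and at 96.1% to 99.9% in 3, while the 3076-base Eln transcript lies between 34.7% and 60.2% in all but AngII+BAI 1 and AngII+GAS 5.

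Most of the genes varied together within groups. Over the 30 libraries, after each group's mean was subtracted, the 45 pairs had a median Pearson r of 0.42 and a range of -0.32 to 0.79, and 38 were above 0. These points share the libraries' tissue composition and the quantifier, so the values are a description. By Pearson's r the closest pairs were Fbln5 with Mfap4 (r = 0.79, Spearman's rho = 0.72) and Fbln5 with Efemp2 (r = 0.76, rho = 0.74), and by Spearman's rho the closest was Mfap4 with Loxl1 (r = 0.72, rho = 0.77). Loxl1 had the highest median r with the other 9 genes, 0.66, against a median of 0.07 with all other tested genes, and Eln was closest to Loxl1 among the members (r = 0.66, rho = 0.63). Lox followed Loxl1 with r = 0.51 and rho = 0.69, and r was 0.70 without the 2 libraries farthest from the Lox median. Fbln2 was the exception, with a median r of -0.15 with the other members.

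The fibroblast score went along with 9 of 10 genes, with r between 0.35 for Eln and 0.74 for Fbln5, and was at -0.33 with Fbln2. The smooth muscle score had r = 0.67 with Fbln5 and 0.57 with Efemp2 but 0.26 with Eln and 0.03 with Lox. The brown adipocyte score had r below 0 with 9 of 10 genes, from -0.23 for Mfap5 to -0.71 for Emilin1, and 0.21 with Fbln2. With the macrophage score Emilin1 had r = 0.58 and Lox 0.46. The part of these cell types in the shared variation of the genes was not tested. For each member the 3 tested genes with the highest r over the 30 libraries are given. For Loxl1 they were Kdelr3 (r = 0.95), a receptor that returns proteins to the endoplasmic reticulum, Chsy1 (0.93), a chondroitin synthase, and Pofut2 (0.92), a fucosyltransferase. For Emilin1 they were Rcn1 (0.91), P4hb (0.89) and Ddost (0.88), all of the endoplasmic reticulum. Mfap4 was closest to Colec12 (0.91), Fmod (0.90) and Adamts2 (0.90), the last 2 a collagen-binding proteoglycan and the procollagen N-proteinase. Fbln5 was closest to Snhg18 (0.92), Islr (0.91) and Sgce (0.90), and Efemp2 to Lhfp (0.83), Dap (0.81) and Cgref1 (0.81). The nearest genes were less close for Lox (Slc2a10, 0.82; Slc39a1-ps, 0.81; Scfd1, 0.81), Fbln2 (H2afj, 0.74; E2f5, 0.65; Ube2m, 0.63), Eln (Iglon5, 0.71; Loxl1, 0.66; Nucb1, 0.65), Mfap5 (Gm6286, 0.67; 2610035D17Rik, 0.63; Svbp, 0.60) and Fbn1 (Arpin, 0.65; Adamts2, 0.64; Mpv17l, 0.64).

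**Figure D4:**
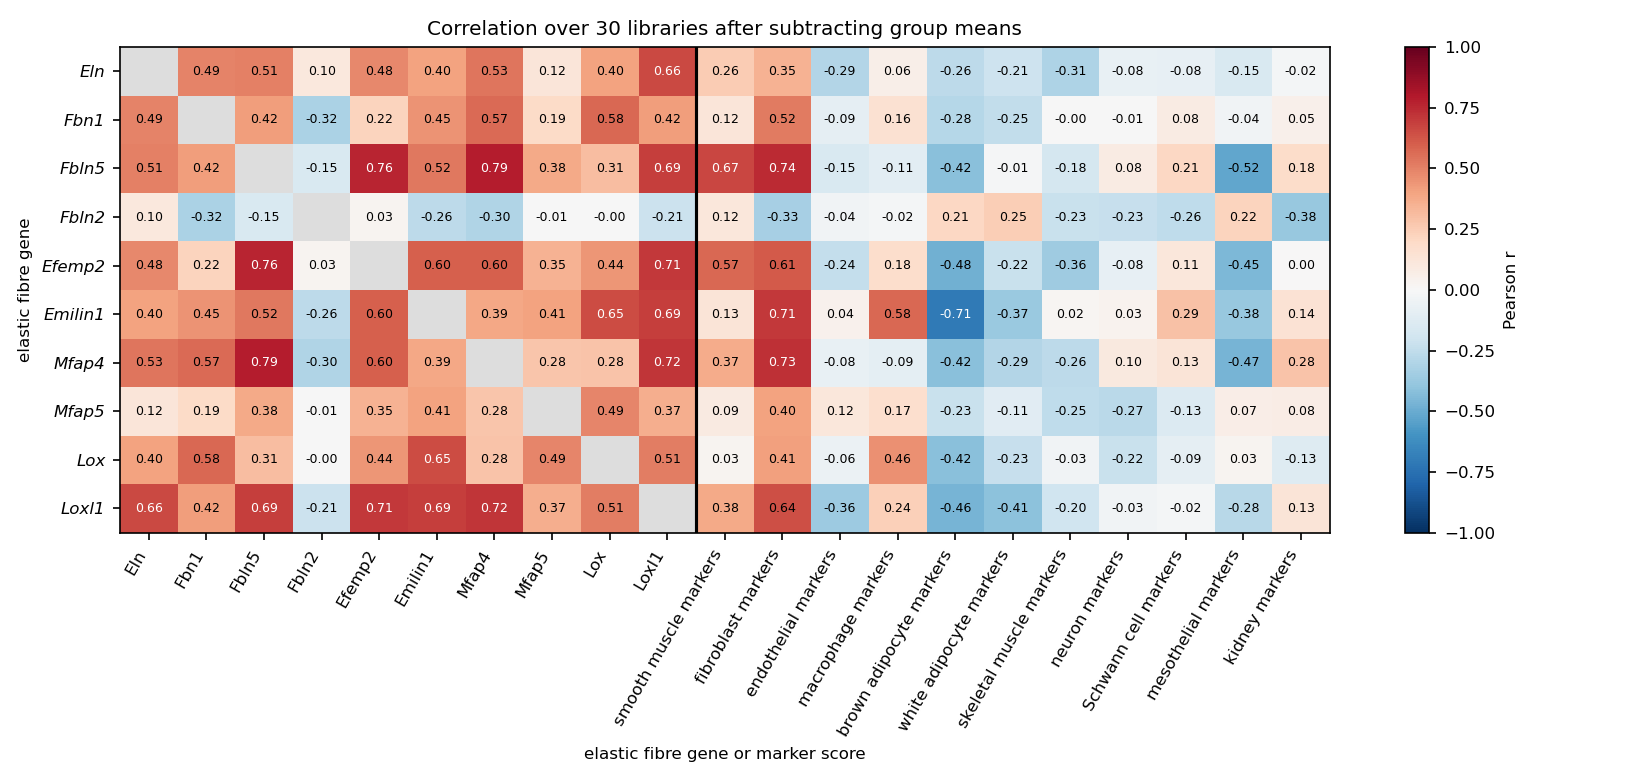
Pearson r over 30 libraries after subtraction of group means, between the 10 genes (left block) and between each gene and 11 marker scores (right block), coloured from blue (negative) to red (positive). The block of the genes is mostly red, with Fbln5 and Mfap4 at 0.79, and the Fbln2 row is near or below 0.

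The remaining genes of the elastic fibre pathway were read from a list of 37, of which 33 were tested. Tll1, Adamts6 and Papln were below the filter, and Fbn2 was not analysed here. In AngII against Control 0 of 33 passed the threshold, 30 had a log2 fold change above 0 and 11 an unadjusted p under 0.05 on the higher side, against 66.6% and 9.51% of tested genes. The list's median was 0.59, against 0.11 over all tested genes. By role, the log2 fold change was above 0 for 7 of 8 microfibril and fibulin genes (median 0.34), 3 of 4 latent TGF-beta binding proteins (0.18) and 6 of 7 cross-linking enzymes and cofactors (0.56). It was above 0 for all 4 ADAMTS and ADAMTS-like genes (0.86) and all 10 elastin-degrading enzymes and inhibitors (0.63).

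The gene with the smallest p of this list in AngII against Control was Adamtsl2, which encodes a secreted protein that binds fibrillin-1 and latent TGF-beta binding protein. It was at 3.95, 7.02, 5.86, 5.84 and 11.6 FPKM in AngII 1 to 5, against 2.51, 2.02, 1.51, 1.57 and 3.44 FPKM in Control. All AngII values were above all Control values, which held for 3.01% of tested genes. On this list it held also for Loxl3, Cst3, Ctsl, Ctsk, Timp3 and Mfap2. The log2 fold change was 1.26 (SE 0.29, adjusted p = 0.16), and it passed with array weights (adjusted p = 0.038) and without AngII+BAI 3 and 5 (adjusted p = 0.047). With the neuron and skeletal muscle scores as terms the value was 0.92 (adjusted p = 0.995), and the adjusted p was 0.51 without AngII 5 and 0.46 without AngII 1 and Control 1 and 2. Loxl3, a lysyl oxidase relative, was at 13.3, 20.9, 22.6, 13.3 and 15.9 FPKM in AngII, against 9.73, 5.97, 10.96, 8.20 and 10.7 FPKM in Control, again without overlap (log2 fold change 0.84, SE 0.25, adjusted p = 0.22). Cst3, the cathepsin inhibitor cystatin C, averaged 1035 ± 184 FPKM in AngII and 664 ± 141 in Control (SD, n = 5 each; log2 fold change 0.65, SE 0.21, adjusted p = 0.25).

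Log2 fold changes below 0 were those of Loxl2 (-0.75, SE 0.61, adjusted p = 0.68), Mmrn2 (-0.36, SE 0.38, adjusted p = 0.75) and Ltbp3 (-0.24, SE 0.99, adjusted p = 0.96). Ltbp3 was listed at 0 in 3 AngII and 2 Control libraries and at up to 27.3 FPKM in AngII and 16.2 FPKM in Control. Loxl3 also had the smallest p of the list in the 5 angiotensin II groups together against Control (log2 fold change 0.67, SE 0.19, adjusted p = 0.45). There 26 of 33 genes had a log2 fold change above 0, against 55.8% of tested genes, 0 passed and the median was 0.36. By role these were 4 of 8 microfibril and fibulin genes, 3 of 4 latent TGF-beta binding proteins, 5 of 7 cross-linking genes, all 4 ADAMTS and ADAMTS-like genes and all 10 degrading enzymes and inhibitors.

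Of the 33 genes, 7 had a log2 fold change above 0 in AngII+ETH against AngII (31% of all tested genes), 10 in AngII+BAI (48.7%), 4 in AngII+GAS (26.3%) and 5 in AngII+VAL (30.6%). In AngII+BAI 1 gene passed, on the lower side, against 0.318% of tested genes lower and 0.0151% higher, and in the other 3 comparisons 0 passed. Adamtsl2 fell in AngII+BAI, to 1.40, 3.97, 0.300, 2.51 and 2.004 FPKM in libraries 1 to 5, against 3.95, 7.02, 5.86, 5.84 and 11.6 FPKM in AngII. AngII+BAI 2 overlapped AngII 1, and the AngII+BAI mean, 2.04 ± 1.36 FPKM, stood next to the Control mean of 2.21 ± 0.798 FPKM (SD, n = 5 each). The log2 fold change was -1.44 (SE 0.29, adjusted p = 0.029). The adjusted p was 0.071 without AngII+BAI 3 and 5, 0.12 without AngII 5, 0.051 after quantile normalization and 0.46 with the neuron and skeletal muscle scores as terms, so that the call was lost there. It was also lost without AngII+BAI 1 (0.053) or AngII+BAI 3 (0.076), without AngII 1 and Control 1 and 2 (0.054), with unlisted transcripts set to 0 (0.062), with array weights (0.20) and with the compared groups alone (0.58). The log2 fold change lay between -1.65 and -1.16 when single libraries were left out. Adamtsl2 averaged 6.60 ± 1.05 FPKM in AngII+ETH, 3.53 ± 1.62 in AngII+GAS and 4.22 ± 1.55 in AngII+VAL, against 6.87 ± 2.89 in AngII (SD, n = 5 each), with a log2 fold change of -0.80 (SE 0.29, adjusted p = 0.25) for AngII+GAS. The smallest p in AngII+ETH was that of the fibulin gene Efemp1 (log2 fold change -0.49, SE 0.22, adjusted p = 0.99). In AngII+VAL it was that of Adamts10, a fibrillin-binding protease (log2 fold change -0.62, SE 0.22, adjusted p = 0.30).

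**Figure D5:**
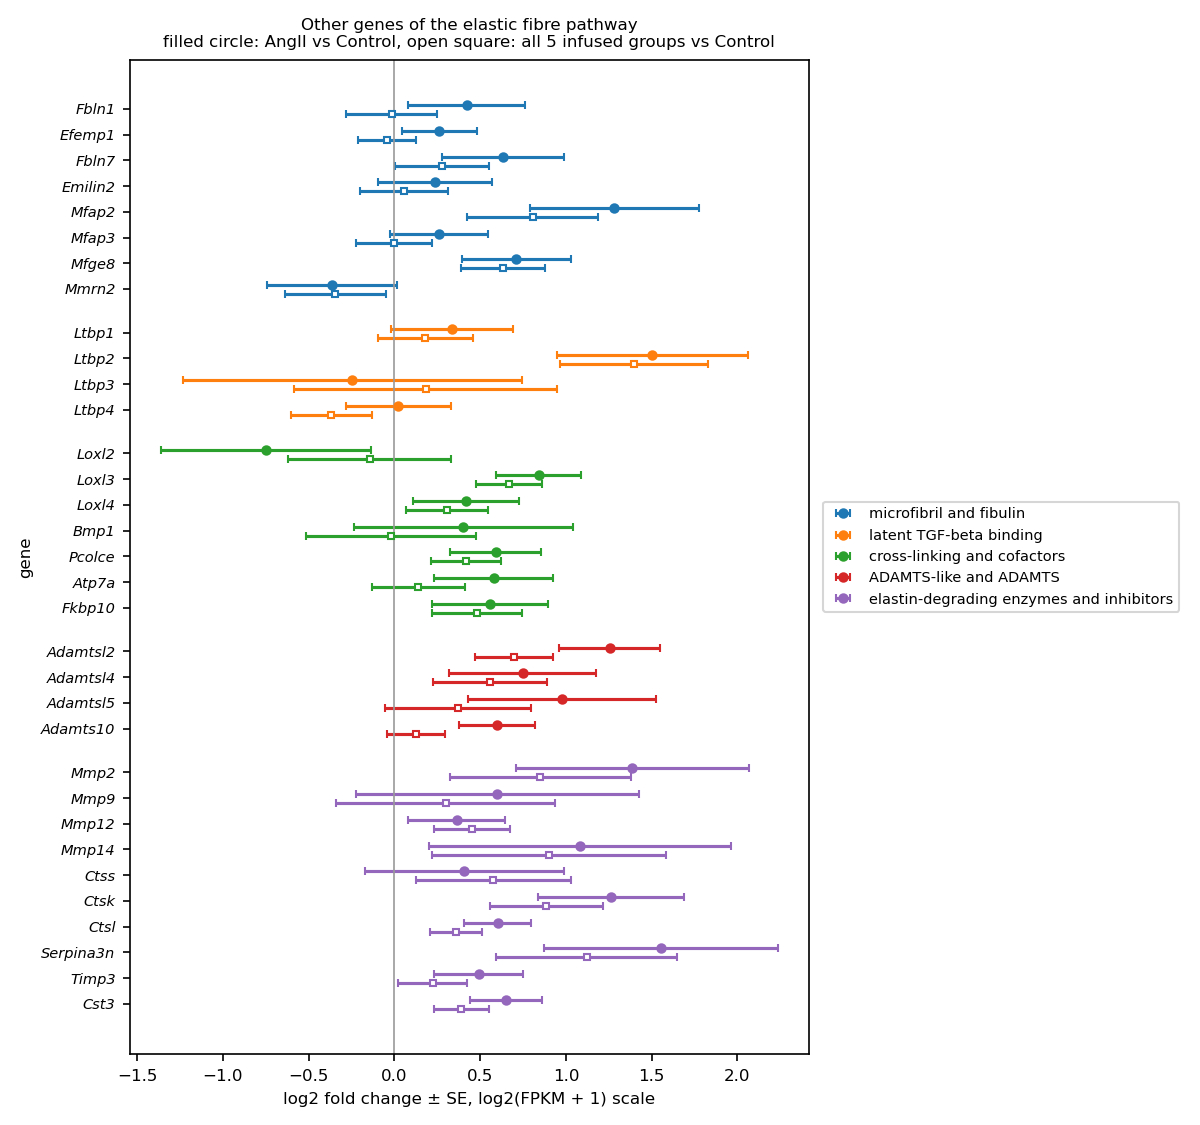
Log2 fold change with its SE for 33 other genes of the elastic fibre pathway, coloured by role, in AngII against Control (filled circles) and in all 5 angiotensin II groups against Control (open squares). Of the filled circles 30 lie to the right of 0, that of Adamtsl2 at 1.26, and none passed the adjusted threshold.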

How the data were processed

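RNA of 30 abdominal aorta libraries was sequenced after ribosomal RNA depletion with a kit that does not mark strand, per the labels' protocols, so that overlapping and antisense genes cannot be told apart. The deposited values are FPKM per transcript, a unit inferred from the values because the headers give none. The submitters' processing notes name the mm10 build and limma, and the aligner, assembler and quantifier are not given in the sources used here. Low values were within 0.1 read of whole reads in 98.8% to 99.7% of cases, which gave the depths, and 3 reads in a 2 kb transcript correspond to 0.0186 to 0.0215 FPKM. These limits cover counting error only.

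Of 49085 transcripts, 39267 were listed in all 30 files. Of 33677 Ensembl transcripts 33638 matched GENCODE M21 (GRCm38), and the 27797 matched ones listed in all files were summed to 14379 genes. The 13223 genes that reached 1 FPKM in 5 or more libraries were tested on log2(FPKM + 1) with limma 3.58.1 in R 4.3.3, with 1 mean per group over all 30 libraries, a trended and robust prior, 24 residual degrees of freedom, two-sided p-values and Benjamini-Hochberg adjustment at 0.05 over all tested genes. Data were also simulated for AngII against Control over 13223 genes. Recovery was 59% of 100 genes changed by 1 on the log2 scale and 88% of 100 changed by 2, with 3 false calls. The changed genes were drawn at random from all tested genes, with noise independent between genes at each gene's own within-group SD. Most members had a within-group SD above the median of 0.39, so these shares are not those of the members. Summaries used Python 3.11.15 with pandas 2.3.3 and figures matplotlib 3.10.9.

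The labels carry no replicate numbers, so library numbers follow the order of deposit and pair nothing. All 10 elastic fibre genes are named in every comparison, and of 37 other pathway genes those with the smallest p and those against the list's direction. The members and lists were chosen with earlier results of these data known. Other pseudocounts, filters, scalings, covariates, sample sets, array weights and left-out libraries were tried.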

Additional observations from a re-analysis of the deposited data

Results flagged for a closer look

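In 60 sets of 5 libraries, 1 gene in 1 group each, 3 libraries stood apart from the other 4 of their group by a gap above 0.71 of the group's range, and chance flags about 1 in 20 such sets. Fbln5 was at 113.87 FPKM in AngII+ETH 4, against 49.6 to 65.4 FPKM in the other AngII+ETH libraries. Mfap4 was at 162.2 FPKM in the same library, against 109 to 117.5 FPKM in the others. AngII+ETH 4 also had the highest smooth muscle score (8.10) and fibroblast score (7.87) of its group, and their part in these values was not tested. Emilin1 was at 28.58 FPKM in AngII+GAS 5, against 14.1 to 17.9 FPKM in the other AngII+GAS libraries. That library had the highest smooth muscle score (8.08) and fibroblast score (7.39) of its group, and their part was not tested.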

How the results depend on the processing

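Of 1330 member values under other settings 1249 kept their direction, 81 turned and 0 passed the threshold, with a lowest adjusted p of 0.107 (limma). Adamtsl2 in AngII+BAI is the 1 call that the settings named above removed. No paired analysis was possible because the labels carry no replicate numbers. The cause of the changes below was not tested.

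The count of genes past the threshold in AngII against Control was 0, and it was 4 without the filter, 64 with array weights and 18 without AngII+BAI 3 and 5. For AngII+BAI it was 44, and it was 74 with unlisted transcripts set to 0, 102 without AngII+BAI 3 and 5, and 0 with the neuron and skeletal muscle covariates, with the compared groups alone, with array weights, or without AngII 1 and Control 1 and 2. For AngII+GAS it was 2, and it was 1 with a pseudocount of 0.1, 8 with unlisted transcripts set to 0, 232 with array weights, and 0 after quantile normalization, with the covariates, with the compared groups alone or without AngII 1 and Control 1 and 2. For AngII+VAL it was 0, and it was 18 with unlisted transcripts set to 0, 19 with the compared groups alone and 16 without AngII 1 and Control 1 and 2. For all angiotensin II groups against Control it was 6, and it was 10, 23 and 0 with unlisted transcripts at 0, with array weights and without AngII 1 and Control 1 and 2. Leaving out single libraries gave 0 to 41 genes in AngII against Control (41 without AngII 2), 0 to 1 in AngII+ETH, 0 to 184 in AngII+BAI (184 without AngII+BAI 2), 0 to 61 in AngII+GAS (61 without AngII 2), 0 to 1 in AngII+VAL and 0 to 9 in all angiotensin II groups.

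The log2 fold changes that turned were these. With array weights Lox was at -0.16 in AngII against Control and 0.058 in AngII+GAS, Eln at 0.10 in AngII+ETH, Efemp2 at -0.022 in AngII+BAI and Mfap5 at 0.28 in AngII+VAL. With the covariates Eln (0.17) and Mfap4 (0.022) turned in AngII+ETH and Mfap5 (-0.17) in AngII+GAS. In AngII+VAL they turned Mfap4 (0.15), Mfap5 (0.19), Lox (-0.060) and Loxl1 (0.15). There the skeletal muscle score of every library lay above all AngII scores, so this term cannot be cleanly separated from valsartan. Efemp2 in AngII+BAI was at -0.00143 with a pseudocount of 0.1 and at -0.079 after quantile normalization, which also turned Eln in AngII+BAI (-0.14), Lox in AngII+GAS (0.054) and Mfap5 in AngII+VAL (0.063). Without AngII 1 and Control 1 and 2, Fbn1 was at 0.055 in AngII against Control, Mfap5 at -0.33 and Lox at -0.19 in AngII+ETH, and Eln at -0.034, Fbn1 at -0.20, Efemp2 at -0.15 and Lox at -0.14 in AngII+BAI. There Fbn1 (-0.11) and Mfap5 (-0.40) turned in AngII+GAS, and Eln (-0.072), Fbn1 (-0.39) and Lox (-0.55) in AngII+VAL. Without AngII+BAI 3 and 5, Fbln5 was at 0.12 and Fbln2 at 0.050 in AngII+BAI.

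Leaving out single libraries, the values that turned had these ranges. In AngII against Control they were -1.01 to 0.14 for Fbn1, -0.28 to 1.03 for Lox and -1.05 to 0.32 for Ltbp3. In AngII+ETH they were -0.33 to 0.22 for Eln, -0.33 to 0.53 for Mfap5, -0.19 to 1.13 for Lox and -0.056 to 0.25 for Loxl1. In AngII+BAI they were -0.21 to 0.34 for Eln, -0.20 to 0.95 for Fbn1, -0.47 to 0.17 for Fbln5, -0.54 to 0.13 for Fbln2, -0.31 to 0.33 for Efemp2 and -0.14 to 1.17 for Lox. In AngII+GAS they were -0.11 to 1.04 for Fbn1, -0.40 to 0.25 for Mfap5, -0.88 to 0.43 for Lox and -0.34 to 0.011 for Loxl1. In AngII+VAL they were -0.24 to 0.30 for Eln, -0.39 to 0.76 for Fbn1, -0.46 to 0.20 for Mfap5, -0.55 to 0.76 for Lox and -0.24 to 0.065 for Loxl1. In all angiotensin II groups against Control they were -0.016 to 0.26 for Fbln5 and -0.30 to 0.075 for Efemp2.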
